A study of Homo sapiens with 9 samples.

Results

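Mouse full-length klotho (KL-FL) was set directly against the KL1 subdomain of the same protein (KL1) in HCT 116 cells, an epithelial line from a human colorectal carcinoma. The comparison used 6 of the 9 arrays in the series, the 3 titled as KL-FL and the 3 titled as KL1. The other 3 arrays, from cells given the empty expression vector pcDNA3, served only as a reference level. All 9 samples shared the cell line, a transfection with JetPEI or polyethylenimine, RNA harvest 24 hours later and 100 ng of input RNA on a human whole-transcript Affymetrix array. Unstated in the labels are the reagent of each sample, what share of cells took up a vector, where the KL1 construct ends, and whether replicates were separate cultures. The p-values therefore rest on the spread of these arrays alone, and that spread may be technical. Whole cultures were read, so fewer cells with a transcript and less transcript per cell cannot be told apart. Values are log2 expression values as deposited. Of the probe sets that name 1 gene, the brightest stood for each of 17958 genes, and every difference below is the KL-FL mean minus the KL1 mean on that log2 scale.

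Klotho spans the membrane once, and its extracellular part is built from a pair of glycosidase-like repeats called KL1 and KL2. The full-length protein pairs with FGF receptors to form the receptor of the hormone FGF23, and its extracellular part can also be shed. Membrane and secreted proteins fold in the endoplasmic reticulum (ER). When unfolded protein builds up there, sensors in the ER membrane switch on the unfolded protein response, a program of chaperones, degradation factors and transcription factors that is named in the title of the series. The comparison asks whether cells carrying the whole protein and cells carrying only its first repeat differed in this program or in any other gene.

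The median log2 value over genes was between 5.38 and 5.42 on all 9 arrays. KL-FL replicate 3 stood apart, its correlation to the other arrays having a median of 0.997, and with a standard deviation (SD) of 0.094 from its group mean. KL1 replicate 2 came next at 0.9979 and 0.078, and the correlations of the remaining arrays were 0.9986 to 0.9989. The epithelial markers, among them EPCAM and KRT8, averaged 6.3 to 6.43 per array. Of the 20 epithelial markers, 11 lay above the all-gene median of 5.39, while VIL1, KRT20 and CDH17, markers of differentiated colon, were at the low end of the scale. The fibroblast and endothelial markers averaged 3.79 to 3.84 and the leukocyte markers 3.72 to 3.78 on every array, with 3 of 20 and 1 of 17 above the all-gene median.

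No gene differed between full-length klotho and KL1 at the threshold of adjusted p 0.05. Of 17958 genes, 0 passed (0%) in limma, a linear model with moderated variances, and the smallest adjusted p was 0.848. Before adjustment, 906 genes (5.05%) had a p under 0.05, 627 of them higher with KL-FL (3.49%) and 279 lower (1.55%). The 3 KL-FL arrays and the 3 KL1 arrays did not overlap for 1235 genes (6.88%), with KL-FL above for 838 (4.67%) and below for 397 (2.21%). The typical gene was held to a narrow range. The median absolute difference was 0.0378, the median half-width of the 95% interval was 0.109, and the interval lay within 0.5 log2 of 0 for 17762 genes (98.9%). Differences beyond 0.5 were seen in 12 genes, 1 higher and 11 lower with KL-FL.

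Genes at unadjusted p under 0.05 leaned towards KL-FL, with 69.2% of them higher. This split moved with the scaling of the arrays, to 60.0% when each array was centred on its median and to 48.3% after quantile normalization. Leaving out KL-FL replicate 2 moved it to 53.5% (793 higher and 689 lower), and leaving out KL-FL replicate 3 to 79.5% (890 and 230). It also moved with brightness. Among the dimmest 4490 genes 47.9% of those at unadjusted p under 0.05 were higher with KL-FL, and among the brightest 4490 genes 87.5% were. The mean of these brightest genes relative to the control mean was 0.0039, 0.0357 and -0.0585 on KL-FL replicates 1, 2 and 3 and -0.0017, -0.0226 and -0.0228 on the KL1 replicates. The KL-FL replicates thus lay on both sides of the KL1 replicates. Its part in the lean of single genes was not tested. Arrays of the same vector differed about as much as arrays of different vectors. The SD over genes of the difference between a KL-FL and a KL1 array had a median of 0.128, against 0.133 between KL-FL arrays, 0.124 between KL1 arrays and 0.0927 between control arrays.

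**Figure D1:**
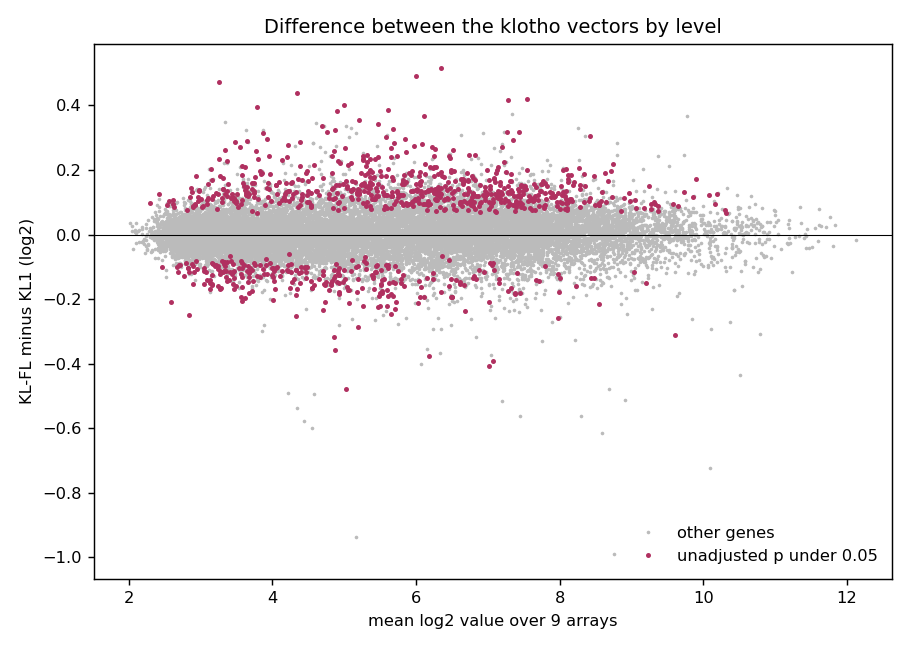
Difference between the KL-FL and KL1 means (log2, vertical axis) against the mean log2 value over 9 arrays (horizontal axis), a point per gene for 17958 genes. Red points are the 906 genes at unadjusted p under 0.05, of which 627 lie above 0, and none of the points passed after adjustment in limma.

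KL, the human klotho gene, read at a similar level with both vectors. It had log2 values of 3.22, 3.21 and 3.13 on the KL-FL arrays, 3.27, 3.18 and 3.13 on the KL1 arrays and 3.05, 3.06 and 3.03 on the controls. Both klotho groups lay above every control and overlapped each other, and the KL-FL minus KL1 difference was -0.0059 (SE 0.040, 95% interval -0.098 to 0.086). The vectors carry mouse sequence and the array was designed on human transcripts, so this reading checks the labels only weakly. The KL values also lay near the floor of the scale, and how much klotho each vector gave cannot be read from them. KLB, which encodes beta-klotho, the co-receptor of FGF19 and FGF21, read 3.47, 3.43 and 3.55 with KL-FL and 3.57, 3.60 and 3.65 with KL1. Every KL-FL array was below every KL1 array and the difference was -0.12 (SE 0.043, limma adjusted p = 0.855), at a level near the floor of the scale. FGFR1, a receptor that klotho pairs with, had a difference of 0.10 (SE 0.074), or 0.025 without KL-FL replicate 3, and its arrays overlapped. Of the 19 measured klotho, FGF receptor and FGF ligand genes, 8 were higher and 11 lower with KL-FL, with a median of -0.0059 against 0.0058 over all genes. LCTL, the remaining klotho paralog, had no probe set naming it alone.

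The genes with the smallest p differed by less than 0.4 log2. The 10 that were higher with KL-FL ran from 0.126 to 0.384 and the 10 that were lower from -0.248 to -0.14. In all 20 the arrays of the groups did not overlap, a property that also held for 6.88% of all genes, and the choice by p favours it. All 20 missed the threshold in limma, at adjusted p = 0.848 for CCDC68, CCDC82, STARD9 and ETFDH and 0.855 for the others.

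CCDC68, a coiled-coil protein of the centriole's subdistal appendages, read 4.97, 4.92 and 4.91 with KL-FL and 4.66, 4.70 and 4.72 with KL1. The controls, at 4.91, 4.79 and 4.87, lay between the groups, and the difference was 0.24 (SE 0.039, 95% interval 0.15 to 0.33). STARD9, a kinesin-like motor protein found at the centriole, had the widest difference among these genes. It read 5.12, 4.96 and 5.24 with KL-FL, 4.69, 4.77 and 4.70 with KL1, and 4.85, 4.87 and 4.87 in control. All KL-FL arrays were above and all KL1 arrays below the controls, with a difference of 0.38 (SE 0.062). The 2 other STARD9 probe sets differed by 0.10 and 0.18. CCDC82, another coiled-coil protein, read 5.38, 5.34 and 5.44 with KL-FL against 5.16, 5.11 and 5.16 with KL1, again with the controls between. Its difference was 0.24 (SE 0.039), but its second probe set differed by only 0.077.

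ETFDH, the mitochondrial dehydrogenase that passes electrons from fatty acid and amino acid oxidation to ubiquinone, read 6.19, 6.28 and 6.21 with KL-FL and 6.03, 6.04 and 6.05 with KL1. The controls lay at 6.10, 6.12 and 6.12, between the groups, and the difference was 0.19 (SE 0.031). TMTC4, an O-mannosyltransferase of the ER, read 6.59, 6.63 and 6.59 with KL-FL and 6.42, 6.45 and 6.35 with KL1, a difference of 0.19 (SE 0.039). Here KL-FL lay above every control and KL1 overlapped them. EXOC5, a subunit of the exocyst that tethers secretory vesicles to the plasma membrane, read 8.16, 8.17 and 8.22 with KL-FL against 8.04, 8.01 and 7.89 with KL1. The difference was 0.20 (SE 0.041), and 0.051 and 0.047 at its 2 dimmer probe sets.

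SMURF1, WDR26 and HERC3 encode parts of ubiquitin ligases, the enzymes that mark proteins with ubiquitin. SMURF1, a ligase whose targets include SMAD proteins, read 7.56, 7.62 and 7.61 with KL-FL and 7.48, 7.45 and 7.44 with KL1, on either side of controls that all read 7.51. WDR26, a subunit of the CTLH ligase, read 7.42, 7.40 and 7.46 with KL-FL, while its KL1 values of 7.28, 7.29 and 7.21 overlapped the controls. HERC3 read 6.26, 6.42 and 6.41 with KL-FL, overlapping the controls, while its KL1 values of 6.13, 6.14 and 6.08 lay below them. The differences were 0.14 (SE 0.028) for SMURF1, 0.17 (SE 0.031) for WDR26 and 0.24 (SE 0.048) for HERC3. The remaining gene, the pseudogene PRORSD1P, read 4.15, 4.17 and 4.15 with KL-FL and 4.03, 4.04 and 4.02 with KL1.

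Among the genes lower with KL-FL, CASP9, the initiator caspase of mitochondrial apoptosis, read 5.48, 5.49 and 5.63 against 5.68, 5.74 and 5.73 with KL1. The KL1 arrays overlapped the controls and the KL-FL arrays lay below them, with a difference of -0.19 (SE 0.043). JOSD2, a deubiquitinase, showed the same layout at 5.94, 5.89 and 5.95 with KL-FL and 6.09, 6.18 and 6.09 with KL1 (difference -0.19, SE 0.037). EMILIN2, an extracellular matrix glycoprotein, did so too, with 5.38, 5.43 and 5.44 against 5.64, 5.55 and 5.61 (difference -0.18, SE 0.034). In 5 of the 10 lower genes it was KL1 alone that left the control range. PLA2G3, a secreted phospholipase, read 4.80, 4.94 and 4.88 with KL1 and 4.71, 4.61 and 4.67 with KL-FL, where KL-FL overlapped the controls (difference -0.21, SE 0.043). B4GALNT2 and ABO, glycosyltransferases that build the Sd(a) and ABO blood group antigens, had the same order. B4GALNT2 read 3.96, 3.97 and 3.92 with KL-FL and 4.24, 4.17 and 4.04 with KL1 (difference -0.20, SE 0.048). ABO read 5.50, 5.47 and 5.42 against 5.65, 5.57 and 5.60 (difference -0.14, SE 0.036). MB21D2 also had KL1 alone above the controls, with a difference of -0.16 (SE 0.038). C20orf144 had KL-FL alone below them, like CASP9, with a difference of -0.25 (SE 0.057). Some of the lower genes were dim. The transcription factor SOX14 read 3.37, 3.45 and 3.44 with KL-FL and 3.60, 3.56 and 3.57 with KL1, and LYZL1, a lysozyme-like gene whose KL1 arrays alone left the control range, lay between 2.69 and 3.10. Over the 10 genes the mean level ran from 2.83 to 6.07, against 4.07 to 8.09 for the 10 higher genes.

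Relative to the controls, both vectors lay outside the control range for 6 of the 10 higher genes and for 1 of the 10 lower genes, SOX14. Over all genes this opposite placing, with every KL-FL array on 1 side of all controls and every KL1 array on the other, was found for 20 genes (0.111%), 16 with KL-FL above (0.0891%) and 4 with KL-FL below (0.0223%). Both vectors lay on the same side of all controls for 639 genes (3.56%), above for 395 (2.2%) and below for 244 (1.36%). Both placings use the same 3 control arrays, and the choice of genes by smallest p favours the opposite placing. The replicate values behind some control positions were nearly identical, as in SMURF1, and 556 genes had 1 value on all 3 control arrays.

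**Figure D2:**
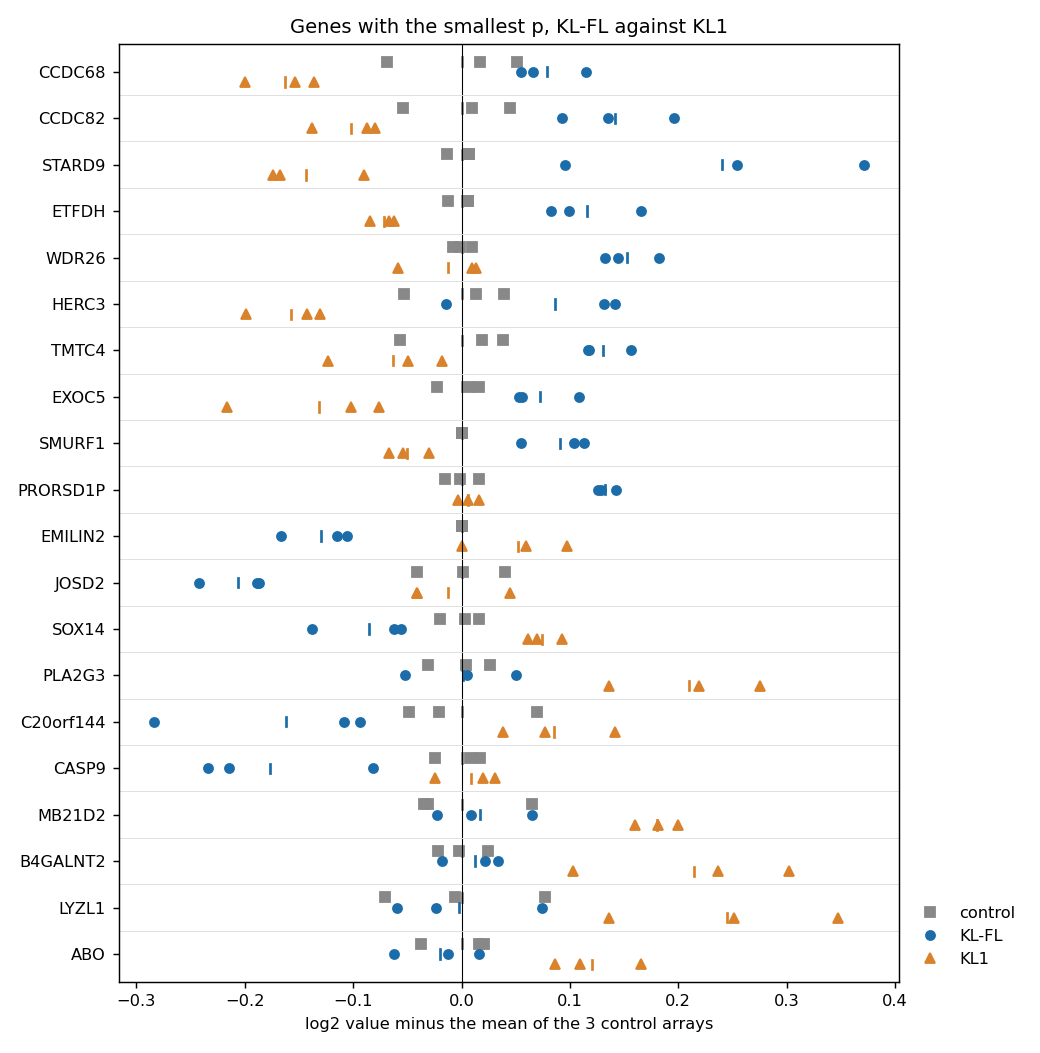
Log2 value of each array minus the mean of the 3 controls (horizontal axis) for the 10 genes with the smallest p in each direction. Grey squares are control, blue circles KL-FL and orange triangles KL1 arrays, and ticks mark group means; in every gene the blue and orange points are apart, and no gene passed the limma test over all genes.

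The largest differences were not those with the smallest p, and their arrays were scattered. MIR222, the gene of a microRNA that represses the cell cycle inhibitor CDKN1B, had the highest difference, 0.52 (SE 0.21). It read 6.58, 6.32 and 7.04 with KL-FL and 6.46, 5.69 and 6.25 with KL1, so the groups overlapped. MIR32, a microRNA gene in an intron of another gene, read 4.32, 4.34 and 5.13 with KL-FL and 4.11, 4.13 and 4.25 with KL1. Its difference of 0.44 (SE 0.18) became 0.17 without KL-FL replicate 3. The probe sets read the microRNA gene and do not separate the mature arms, which are given here from RefSeq (GRCh38.p14) with the seed, bases 2 to 8, in capitals to show that the 4 arms carry 4 different seeds:
hsa-miR-222-3p: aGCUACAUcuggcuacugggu
hsa-miR-222-5p: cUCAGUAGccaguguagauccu
hsa-miR-32-5p: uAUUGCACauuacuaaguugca
hsa-miR-32-3p: cAAUUUAGugugugugauauuu
The other genes with the highest differences were LOC399975 (0.49, SE 0.17), LINC01356 (0.47, SE 0.12) and ZNF808, a zinc finger gene (0.42, SE 0.18). Without KL1 replicate 2 the ZNF808 difference was 0.17 and that of MIR222 0.29, and MIR222 had 0.32 without KL-FL replicate 3. All 5 genes had limma adjusted p = 0.855. Of the 180 microRNA genes measured, 7 were at unadjusted p under 0.05 and higher with KL-FL and 4 lower, beside 3.49% and 1.55% of all genes.

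The lowest differences rested mostly on 1 array. The widest was read by a probe set that the platform annotation assigns to TOB2, the gene of an antiproliferative protein of the BTG family. It read 7.56, 7.92 and 7.35 with KL-FL, 7.70, 10.13 and 7.98 with KL1, and 9.71, 10.05 and 10.35 in control. KL1 replicate 2 was alone among the klotho arrays in reading at the control level, and the difference of -0.99 (SE 0.54) was -0.23 without it. A second probe set assigned to TOB2 held identical values, and the other one differed by -0.087. The probe sets thus disagree, and whether the widest difference belongs to TOB2 is in doubt. SNORA14A, a small nucleolar RNA that guides pseudouridylation, read 4.58, 4.57 and 4.70 with KL-FL and 4.49, 7.68 and 4.50 with KL1. The high array was again KL1 replicate 2, beside a control replicate 2 at 6.89, and without KL1 replicate 2 the difference of -0.94 (SE 0.89) turned to 0.12. SNORA23, of the same class, and RNU4-1, the spliceosomal U4 RNA, were low on KL-FL replicate 3, at 8.60 and 7.17. Their differences of -0.72 (SE 0.37) and -0.61 (SE 0.37) became -0.23 and -0.11 without that array. SCARNA6, a small Cajal body RNA, read 4.33, 4.72 and 3.83 with KL-FL and 4.40, 5.72 and 4.56 with KL1, and its difference of -0.60 (SE 0.34) ran from -0.85 to -0.19 as each array was left out.

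The unfolded protein response read at similar levels with both vectors. The promoters of its best known targets carry short elements through which the transcription factors ATF6 and XBP1 act. They are shown for the 4 marker genes whose window held an exact match, to mark where it lies. The choice is by letters alone, and a marker without a match may still respond to these factors. The markers with the widest differences, DNAJB9, DDIT3 and SEL1L, held no match. Each line gives the 250 bases before the RefSeq start (GRCh38.p14) in the direction of the gene, with the element in capitals. HSPA5 (chr9:125241344-125241593, minus strand) holds an ER stress element 66 to 48 bases before the start, and XBP1 (chr22:28800570-28800819, minus strand) holds one 52 to 34 bases before it. HSP90B1 (chr12:103930160-103930409, plus strand) holds 2, at 194 to 176 and, on the other strand, 89 to 71 bases before the start. HERPUD1 (chr16:56931892-56932141, plus strand) holds the second type 117 to 107 bases before the start.
HSPA5: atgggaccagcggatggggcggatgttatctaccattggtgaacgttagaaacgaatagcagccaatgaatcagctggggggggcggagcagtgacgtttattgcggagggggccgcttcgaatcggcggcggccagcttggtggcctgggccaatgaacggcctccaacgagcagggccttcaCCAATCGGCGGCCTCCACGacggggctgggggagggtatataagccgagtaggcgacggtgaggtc
HSP90B1: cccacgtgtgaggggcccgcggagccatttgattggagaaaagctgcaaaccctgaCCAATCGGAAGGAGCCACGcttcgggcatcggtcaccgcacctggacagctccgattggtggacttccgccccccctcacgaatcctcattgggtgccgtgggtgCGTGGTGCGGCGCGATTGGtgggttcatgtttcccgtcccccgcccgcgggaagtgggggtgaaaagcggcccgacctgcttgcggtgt
XBP1: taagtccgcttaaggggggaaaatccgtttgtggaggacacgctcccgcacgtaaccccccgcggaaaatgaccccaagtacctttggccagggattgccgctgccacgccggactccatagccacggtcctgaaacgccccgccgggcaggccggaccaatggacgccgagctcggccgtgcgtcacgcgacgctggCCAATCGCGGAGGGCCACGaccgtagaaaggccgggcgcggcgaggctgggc
HERPUD1: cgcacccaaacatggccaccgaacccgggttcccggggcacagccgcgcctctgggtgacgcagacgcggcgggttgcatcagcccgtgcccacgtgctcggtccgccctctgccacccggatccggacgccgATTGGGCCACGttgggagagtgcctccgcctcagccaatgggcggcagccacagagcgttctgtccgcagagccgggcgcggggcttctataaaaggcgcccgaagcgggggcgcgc

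HSPA5, the ER chaperone BiP, read 10.94, 10.90 and 10.75 with KL-FL, 11.03, 10.85 and 10.89 with KL1 and 10.64, 10.67 and 10.61 in control. Both groups lay above every control and overlapped, and the difference was -0.058 (SE 0.059, 95% interval -0.19 to 0.075). HSP90B1, the ER chaperone GRP94, was the most closely matched marker, at 10.77, 10.78 and 10.81 with KL-FL and 10.80, 10.83 and 10.73 with KL1. Its difference was 0.0012 (SE 0.033, 95% interval -0.074 to 0.076), and its sign turned under centring and quantile normalization. HERPUD1, a membrane component of ER-associated degradation, read 8.41, 8.45 and 8.17 with KL-FL and 8.45, 8.29 and 8.43 with KL1, with controls from 7.87 to 7.92. Its difference was -0.045 (SE 0.073, 95% interval -0.21 to 0.12). SEL1L, the scaffold of the HRD1 ubiquitin ligase in the same pathway, was the only marker of the 13 without overlap. It read 7.61, 7.58 and 7.63 with KL-FL and 7.70, 7.64 and 7.85 with KL1, a difference of -0.13 (SE 0.056, limma adjusted p = 0.855) that became -0.068 without KL1 replicate 3.

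Among the transcription factors, DDIT3, which encodes CHOP, the factor linked to cell death in prolonged ER stress, read 7.27, 7.48 and 7.23 with KL-FL and 7.45, 7.47 and 7.48 with KL1. The controls lay at 6.67, 6.66 and 6.72, so both groups lay above them. KL-FL replicates 1 and 3 were below the KL1 arrays and replicate 2 read level with the highest of them. The difference was -0.14 (SE 0.059, 95% interval -0.27 to -0.0034, limma adjusted p = 0.855), and it ran from -0.21 to -0.089 as each array was left out. ATF3, another stress-induced factor, differed by -0.095 (SE 0.051), or -0.054 without KL-FL replicate 3. ATF4, the factor translated under PERK signalling, differed by -0.053 (SE 0.049), and XBP1, whose RNA is spliced by IRE1, by -0.057 (SE 0.091). The array does not separate spliced from unspliced XBP1.

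The remaining markers had the same order of size. DNAJB9, an ER J-protein, read 5.55, 5.48 and 5.31 with KL-FL and 5.54, 5.97 and 5.41 with KL1, and its difference of -0.20 (SE 0.14) was -0.029 without KL1 replicate 2. The ATF4 targets TRIB3, ASNS, CHAC1 and SESN2 differed by -0.031 (SE 0.081), -0.026 (SE 0.027), 0.037 (SE 0.11) and 0.034 (SE 0.067). Of all 13 markers, 10 had the lower mean with KL-FL and 3 the higher. Without KL-FL replicate 3 the counts were 7 and 6. Without KL-FL replicate 2 the mean was lower with KL-FL for 11 markers, and without KL1 replicate 2 also for 11. Both vectors lay above every control for 6 of the 13 markers, namely HSPA5, HSP90B1, HERPUD1, SEL1L, DDIT3 and ATF3. Leaving out KL-FL replicate 3 turned the sign for HERPUD1, XBP1, ATF4, TRIB3 and HSP90B1.

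**Figure D3:**
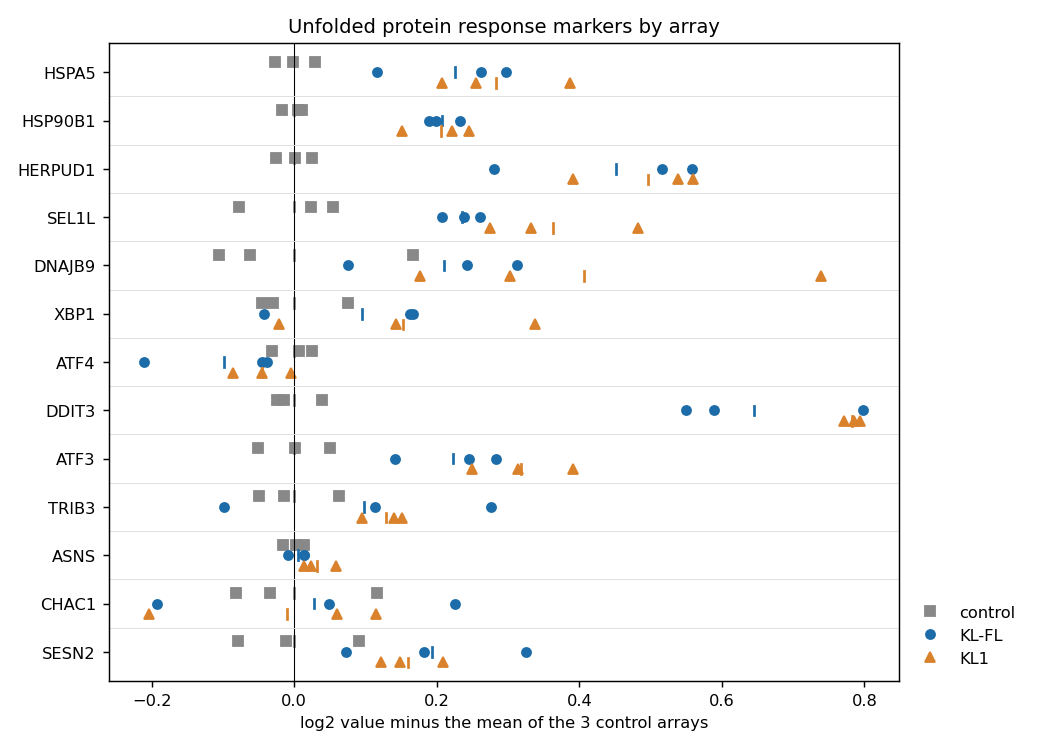
Log2 value of each array minus the mean of the 3 controls (horizontal axis) for 13 unfolded protein response markers. Blue circles (KL-FL) and orange triangles (KL1) overlap in 12 markers and are apart in SEL1L; ticks mark group means and grey squares are controls.

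The full lists of this program also had medians near that of all genes. Together 8 lists held 208 measured genes, of which 94 were higher and 114 lower with KL-FL, with a median of -0.0085 beside 0.0058 over all genes. Of these genes 3 were higher (1.44%) and 3 lower (1.44%) at unadjusted p under 0.05, beside 3.49% and 1.55% of all genes. The arrays did not overlap for 4 with KL-FL above (1.92%) and 5 with KL-FL below (2.4%), beside 4.67% and 2.21% of all genes. Without KL-FL replicate 3 the median was 0.027 with 144 genes higher, and without KL-FL replicate 2 it was -0.028 with 69 higher. The ER chaperones of the HSP70 and HSP90 families and their J-proteins were above the controls on average on all 6 klotho arrays, by 0.162, 0.150 and 0.0708 with KL-FL and by 0.158, 0.217 and 0.0957 with KL1. Between the vectors 6 of 15 were higher with KL-FL and the median was -0.016.

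Within ER-associated degradation, 12 of 28 genes were higher with KL-FL (median -0.0083). EDEM1, which draws misfolded glycoproteins into degradation, read 5.62, 5.64 and 5.78 with KL-FL and 5.66, 5.46 and 5.37 with KL1. Only KL-FL lay wholly above its controls of 5.28, 5.38 and 5.36, yet the groups overlapped at a difference of 0.18 (SE 0.075), and a dimmer EDEM1 probe set differed by -0.061. NGLY1, which removes glycans from proteins on their way to the proteasome, differed by 0.15 (SE 0.064). Without KL1 replicate 3 EDEM1 was at 0.12, and without KL-FL replicate 3 NGLY1 was at 0.092. In the PERK and CHOP list, CEBPB, a dimer partner of CHOP, read 7.94, 8.01 and 7.78 with KL-FL and 8.05, 8.02 and 8.05 with KL1 (difference -0.13, SE 0.054, or -0.067 without KL-FL replicate 3). Of that list 11 of 28 were higher, with a median of -0.012. Of the 8 lists, ER translocation and early secretory traffic had the most genes higher, 27 of 41 (65.9%, beside 54.4% of all genes), with a median of 0.024. SSR1, a subunit of the translocon-associated complex, led it with 9.32, 9.35 and 9.35 against 9.32, 9.20 and 9.23 (difference 0.094, SE 0.036). Without KL-FL replicate 2 the median of this list was 0.0003 with 21 genes higher. Without KL-FL replicate 3 it was 0.046 with 37 higher. The protein disulfide isomerases (8 of 19 higher), N-glycan genes (12 of 29), sensors and factors (6 of 20) and amino acid and tRNA synthetase genes (12 of 28) had medians between -0.013 and -0.0079.

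Genes sharing the printed elements did not separate either. All 35116 RefSeq promoter windows of 300 bases (250 before and 50 after a start) were searched on both strands, and 13861 of the 17958 genes had at least 1 window. The ER stress element, CCAAT and CCACG with 9 bases between them, was in 27 windows (0.0769%). The second type, ATTGG and CCACG with 1 base between them, was in 19 (0.0541%), and the letters CCACG of both could coincide, though no measured gene held both. ATTGCATCA, a form of the element read by ATF4 with C/EBP proteins, was in 83 (0.236%). The 18 measured genes with the first element had 8 higher and 10 lower with KL-FL and a median of -0.0035. Against control their median was 0.050 with KL-FL and 0.085 with KL1, where all genes had 0.0099 and 0.0026. The 16 genes with the second element had a median of 0.019, and against control theirs was 0.055 with KL-FL and 0.019 with KL1, the opposite order. The 34 with the ATF4 element had -0.0098, and 0.014 and 0.0096 against control. Of the 20 genes with the smallest p, 15 had a window and 0 held an element. A match is a run of letters and not a tested site.

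Of the other programs, the mitotic genes had the highest list median. In G2/M and mitosis genes 32 of 44 were higher with KL-FL and the median was 0.040, beside 54.4% and 0.0058 for all genes. At unadjusted p under 0.05, 6 of the 44 were higher (13.6%, against 3.49% of all genes) and 0 lower. The arrays did not overlap for 7 genes with KL-FL above (15.9%, against 4.67% of all genes) and for AURKB with KL-FL below (2.27%, against 2.21%). None passed the limma test over all genes, and the list was among 36 looked at. NUF2, a subunit of the NDC80 complex that binds microtubules at the kinetochore, read 7.58, 7.57 and 7.62 with KL-FL and 7.51, 7.48 and 7.48 with KL1. The controls read 7.62, 7.57 and 7.58, so it was KL1 that lay below them, and the difference was 0.10 (SE 0.029). CDC25C, the phosphatase that activates CDK1 at mitotic entry, had the same layout, with 5.97, 5.87 and 5.81 against 5.73, 5.75 and 5.68 (difference 0.16, SE 0.047). KIF11, the kinesin that separates spindle poles, lay between 7.91 and 8.01 with KL-FL and between 7.79 and 7.90 with KL1 (difference 0.13, SE 0.040). The other genes at unadjusted p under 0.05, CENPI (0.16, SE 0.059), NDC80 (0.10, SE 0.040) and CENPF (0.11, SE 0.048), all kinetochore proteins, were singled out after their values were seen. Other members, likewise picked after their values were seen, were nearer 0 or lower. CDK1 differed by 0.030 (SE 0.040), CCNB1 by -0.038 (SE 0.049) and PLK1 by -0.018 (SE 0.080). BUB1 differed by 0.028 (SE 0.031), MAD2L1 by -0.012 (SE 0.044) and CDC20 by -0.099 (SE 0.086). SPC25 had the highest difference of the list, 0.32 (SE 0.17), and its arrays overlapped. A split of the list by function was not tested. The list mean relative to control was 0.0214, 0.0418 and -0.0232 on the KL-FL arrays and -0.0087, -0.0385 and -0.0491 on the KL1 arrays, so KL-FL replicate 3 lay within the KL1 range. The median was 0.053 without KL-FL replicate 3, 0.019 without KL-FL replicate 2 and 0.022 after quantile normalization.

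**Figure D4:**
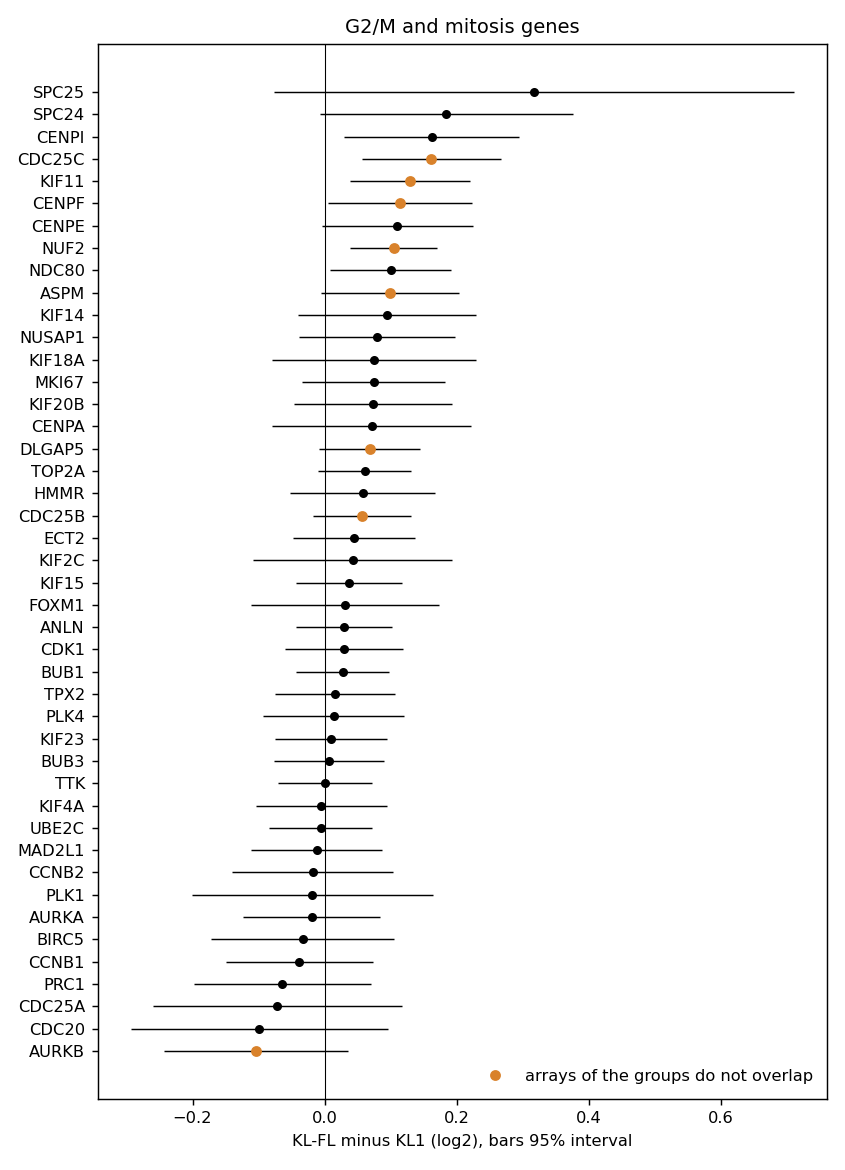
Difference KL-FL minus KL1 (log2, horizontal axis) with its 95% interval for 44 G2/M and mitosis genes, ordered by size. Orange points are genes whose KL-FL and KL1 arrays did not overlap, 7 above 0 and AURKB below it; the intervals of 6 genes lie wholly above 0 before adjustment.

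The medians of several abundant gene classes depended on KL-FL replicate 3. The replication-dependent histone genes, whose RNAs peak in S phase and mostly lack a poly(A) tail, had 5 of 50 higher with KL-FL and a median of -0.062. Their mean relative to control was -0.056 and 0.054 on KL-FL replicates 1 and 2 and -0.345 on replicate 3, against -0.0022, -0.0712 and -0.0152 on the KL1 arrays. Without KL-FL replicate 3 the median was 0.017 and 33 of 50 were higher, and without KL-FL replicate 2 it was -0.15 and 2 were higher. The nuclear-encoded subunits of oxidative phosphorylation moved likewise, from a median of -0.015 (17 of 46 higher) to 0.045 without KL-FL replicate 3 and -0.068 without replicate 2. The ribosomal protein genes went from -0.014 (20 of 59 higher) to 0.028 and -0.051, and the proteasome subunits from -0.012 (16 of 39 higher) to 0.015 and -0.055. For all genes these medians were 0.0058, 0.017 and -0.0049. NDUFB7, a complex I subunit with the smallest p among the oxidative phosphorylation genes, read 6.52, 6.69 and 6.39 against 6.63, 6.92 and 6.76 (difference -0.24, SE 0.087). RPL19, a protein of the large ribosomal subunit, differed by -0.15 (SE 0.063).

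The signalling lists had small medians as well. Among TGF-beta receptors, SMADs and targets 20 of 26 were higher with KL-FL (76.9%, beside 54.4% of all genes). The median was 0.037, beside 0.0058 over all genes. Without KL-FL replicate 2, 15 were higher (median 0.023), without KL-FL replicate 3, 21 (median 0.050), and after quantile normalization 17. At unadjusted p under 0.05, 0 were higher (beside 3.49% of all genes) and 1 lower (3.85%, beside 1.55%). The higher genes included SMAD4, the common SMAD (0.085, SE 0.038), and ACVR1B, an activin receptor (0.076, SE 0.035). TGFBI, a secreted matrix protein induced by TGF-beta, went the other way at 3.49, 3.40 and 3.63 against 3.73, 3.72 and 3.66, a difference of -0.20 (SE 0.053). Its KL-FL arrays lay below and its KL1 arrays above every control. In the insulin and IGF axis, a pathway on which klotho has been studied, 12 of 28 were higher (median -0.011), and the kinase AKT2 led with 8.21, 8.25 and 8.17 against 8.15, 8.08 and 8.06 (difference 0.11, SE 0.034). IGF1R, the receptor, differed by 0.11 (SE 0.061) and overlapped. Of the Wnt target genes, another pathway studied with klotho, 15 of 26 were higher (median 0.0095), with TCF7L2, a Wnt transcription factor, at 0.15 (SE 0.064). Single arrays moved several of these values, SMAD4 to 0.052 without KL-FL replicate 1, ACVR1B to 0.045 without KL-FL replicate 2, IGF1R to 0.041 without KL1 replicate 3 and TCF7L2 to 0.078 without KL-FL replicate 3. The ERK feedback genes had a median of 0.018 with all arrays and 0.068 without KL-FL replicate 3. SPRED2, an inhibitor of ERK signalling in this list, read 8.52, 8.54 and 8.52 with KL-FL and 8.42, 8.43 and 8.45 with KL1, with the KL1 arrays below their controls. Its difference was 0.091 (SE 0.030).

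Autophagy and lysosome genes had 33 of 48 higher with KL-FL (68.8%, beside 54.4% of all genes) and a median of 0.016, beside 0.0058. The median was -0.00061 without KL-FL replicate 2, with 24 higher, and 0.029 without KL-FL replicate 3, with 36 higher. At unadjusted p under 0.05, 1 was higher (2.08%, beside 3.49% of all genes) and 0 lower. GABARAPL2, a ubiquitin-like protein of autophagosome membranes, read 8.79, 8.87 and 8.91 with KL-FL and 8.77, 8.46 and 8.68 with KL1, a difference of 0.22 (SE 0.072) and of 0.13 without KL1 replicate 2. The epithelial-mesenchymal list had 15 of 26 higher, and OVOL1, an epithelial transcription factor, had the smallest p in it at 6.48, 6.53 and 6.39 against 6.58, 6.65 and 6.59 (difference -0.14, SE 0.041). The immediate early gene CCN1, a matricellular protein, was lower on all KL-FL arrays (difference -0.14, SE 0.042). IRF1, a transcription factor of interferon and NF-kappaB signalling, read 5.07, 5.16 and 5.15 with KL-FL and 5.20, 5.47 and 5.36 with KL1, with a difference of -0.22 (SE 0.081). Of the interferon-stimulated genes, which transfected DNA can induce, 22 of 40 were higher, a count of 20 after quantile normalization, with the helicase DDX60 at 0.19 (SE 0.067), or 0.11 without KL-FL replicate 3. The epithelial markers had 7 of 20 higher (median -0.0096), the fibroblast and endothelial markers 12 of 20 (median 0.0040, and -0.00066 after quantile normalization) and the leukocyte markers 5 of 17 (median -0.027). Genes named from the lists for their small p had limma adjusted p = 0.855. The mitotic genes CDK1, CCNB1, PLK1, BUB1, MAD2L1 and CDC20 had higher adjusted p.

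**Figure D5:**
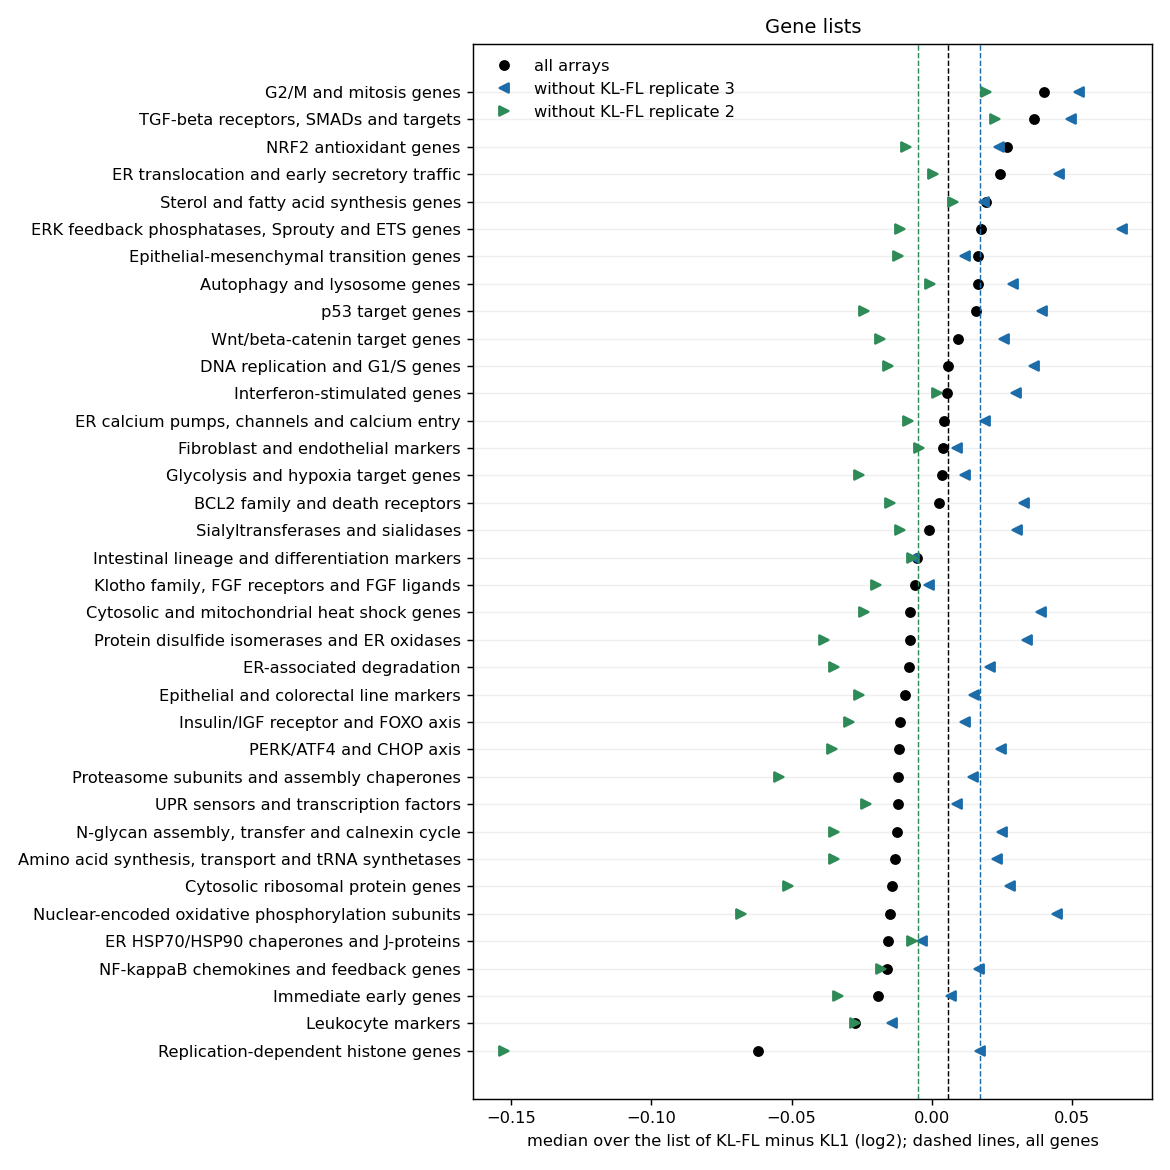
Median over each of 36 gene lists of the KL-FL minus KL1 difference (log2, horizontal axis) with all arrays (black), without KL-FL replicate 3 (blue) and without KL-FL replicate 2 (green); dashed lines are the medians over all genes in the same colours. G2/M and mitosis genes had the highest median at 0.040 and the histone genes the lowest at -0.062. The histone and oxidative phosphorylation lists spread widest between the colours. The ribosomal, ERK feedback, protein disulfide isomerase and proteasome lists followed.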

How the data were processed

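Log2 expression values of 33297 probe sets on 9 arrays were used as deposited by the authors. Partek 6.6 is named in the submitters' processing notes, and the sources used here give neither background correction nor normalization. Values ran from 1.79 to 12.4, from which a base of 2 was inferred. Without a detection call, dim and absent genes are not separated. Of the probe sets, 19181 named 1 gene, 2055 several and 12061 none here, and the brightest per gene gave 17958 genes; 895 genes had several. For 68.5% of genes at least 2 arrays held the same value.

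Samples were grouped by their titles. A 3-group linear model without covariates was fitted to all 9 arrays with limma 3.58.1 in R 4.3.3, with 6 residual degrees of freedom. The contrast was KL-FL minus KL1, p-values were two-sided and adjusted by Benjamini-Hochberg over the 17958 genes, the threshold was 0.05, and the model was tested on simulated data. With 3 arrays against 3, an exact permutation test could not go below p = 0.10. The number of arrays limits the precision.

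The 36 gene lists and the rule for named genes were chosen with earlier results of these data known. The rule takes KL, KLB and LCTL, 13 unfolded protein response markers, 10 genes by smallest p and 5 by largest difference in each direction, and 3 genes per list by smallest p. EPCAM, VIL1, KRT20, CDH17, CENPI, NDC80, CENPF, AURKB, CDK1, CCNB1, PLK1 and ABCA3 are named outside it, after their values were seen. So are BUB1, MAD2L1, CDC20 and SPC25. Alternatives covered the scaling, a brightness filter, the arrays and weights in the model, the variance, the probe set per gene, the replicate number and each array left out.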

Additional observations from a re-analysis of the deposited data

Results flagged for a closer look

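In 9 genes named above every KL-FL array lay on 1 side of all 3 controls and every KL1 array on the other side. These were CCDC68 (KL-FL minus KL1 0.242 on the log2 scale), CCDC82 (0.243), STARD9 (0.384), ETFDH (0.187), EXOC5 (0.204), SMURF1 (0.141) and MIR32 (0.438), with KL-FL above, and SOX14 (-0.16) and TGFBI (-0.196), with KL-FL below. The difference itself was tested with limma for each gene and 0 of the 9 passed. Such a layout was found for 20 of 17958 genes (0.111%), and both effects are read against the same 3 control arrays. All 9 genes were named for a small p or a large difference, a choice that favours this layout. MIR32 was 0.172 without KL-FL replicate 3. TGFBI was dim, and its KL-FL replicate 3 read 3.6294 against a lowest control of 3.6316.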

How the results depend on the processing

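The count of genes past adjusted p 0.05 in limma was 0 with the settings above and 1 with each gene's own variance (ABCA3, at a difference of 0.032) and 1 with array weights (STARD9, 0.399). It was 0 as each array was left out. The array weights of KL-FL replicates 1, 2 and 3 were 6.76, 0.554 and 0.265, so the weighted KL-FL mean was mostly that of replicate 1. The 906 genes at unadjusted p under 0.05 became 413 without genes below the 50th percentile of brightness, where fewer genes are tested, 578 with only the 6 arrays compared, 2994 with array weights and 1680 over all probe sets of the table, an alternative chosen after seeing the data. The cause was not tested for the last 3. Leaving out 1 array gave 726 to 1482, the highest without KL-FL replicate 2. Same-numbered KL-FL and KL1 arrays did not deviate together from their group means (correlations 0.012, -0.095 and -0.095 over genes), and 0 of 6 arrays correlated best with its own number. The controls were outside this check. The values of KL1 replicate 2 correlated at 0.9985 with control replicate 2 and at 0.9978 and 0.998 with control replicates 1 and 3. KL1 replicate 1 was instead closest to control replicate 3 among the controls (0.9988). With the replicate number as a block the counts were 0 and 1016, so no call changed. Testing every probe set that names 1 gene gave 966, and the mean over a gene's probe sets 904. With array weights KL turned to 0.0267, HSPA5 to 0.000721, ATF4 to 0.00404 and HSP90B1 to -0.00318; HSP90B1 was -0.00145 after centring and -0.00285 after quantile normalization. Leaving out 1 array gave ranges across 0 for KL (-0.0355 to 0.0304), HSP90B1 (-0.0263 to 0.0211), HERPUD1 (-0.0979 to 0.0409), XBP1 (-0.144 to 0.0355), ATF4 (-0.0827 to 0.00345), TRIB3 (-0.121 to 0.0667), CHAC1 (-0.062 to 0.147), SESN2 (-0.0323 to 0.0942) and SNORA14A (-1.47 to 0.122). Of 146 named genes 136 kept their sign under every alternative run. Of 684 list medians under alternatives, 667 moved by less than the spread between replicates. That spread includes KL-FL replicate 3, which widens it, so the count is no measure of stability against that array. For the histone list the spread was 0.121, and its move from -0.062 to 0.017 without KL-FL replicate 3 counts as less.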
